A study of Mus musculus with 24 samples.

Results

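The genes described here are those of the mouse major histocompatibility complex (MHC), called H2 in the mouse, and their partners in antigen presentation. They were chosen by name, as the symbols of the RNA table that start with H2- together with Cd74, B2m, Ciita, Tap1, Tap2 and Tapbp, which gave 47 of 20624 genes, of which 41 carry an H2- symbol. By symbol 31 were counted as class I and 12 as class II, and 4 H2- symbols were left outside both, among them H2-gs10, which RefSeq calls H2-Q4 and which is thereby a class I gene of the Q region. RNA was measured in epididymal white fat of male CD-1 mice, an outbred stock, at 19 weeks of age. In the BPA group of 6 animals, the dams had been given bisphenol A (BPA), an estrogen-like plasticizer, orally, 500 ug/kg daily on gestational days 9 to 18. In the vehicle group of 6 animals the dams had been given corn oil over the same days, and the pups of both groups ate a standard chow with 4% fat. Each animal gave 1 RNA library, made after removal of ribosomal RNA. Animals are numbered 1 to 6 within each group, a number that names an animal and does not pair it across groups. Littermates are not marked in the labels, and the tests take every animal as independent.

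MHC class I molecules are present on nearly all nucleated cells and show peptides from inside the cell to CD8 T cells. Their heavy chain pairs with beta-2 microglobulin, and peptides cut by the proteasome reach them through the TAP transporter and tapasin. MHC class II molecules are alpha and beta chain pairs found mainly on macrophages, dendritic cells and B cells, where they show peptides from endosomes to CD4 T cells. The invariant chain Cd74 guards the class II groove, H2-DM exchanges its remnant for a peptide, and the coactivator CIITA turns the class II genes on. Fat holds many macrophages, and adipocytes have also been described to express class II genes.

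Transcription of class II genes runs through a short promoter module whose X box is bound by the RFX complex and CREB and whose Y box is bound by NF-Y, and which together recruit CIITA. The 150 bases before the annotated start are shown for H2-Aa and H2-Eb1, a pair of class II genes whose values parted in some animals, and for the classical class I genes H2-K1 and H2-D1. The sequences are from RefSeq, build GRCm38.p6, which is C57BL/6J and not CD-1, and they are written from 5′ to 3′ on the gene's own strand with motif matches in capitals.
H2-Aa promoter, chr17:34287824-34287973, minus strand: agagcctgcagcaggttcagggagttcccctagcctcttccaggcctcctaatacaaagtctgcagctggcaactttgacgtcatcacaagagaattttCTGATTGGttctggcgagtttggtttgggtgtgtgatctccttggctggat
H2-Eb1 promoter, chr17:34305717-34305866, plus strand: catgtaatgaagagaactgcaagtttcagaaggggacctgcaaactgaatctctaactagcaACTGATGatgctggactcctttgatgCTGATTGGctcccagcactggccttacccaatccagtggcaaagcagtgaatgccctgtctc
H2-K1 promoter, chr17:34000348-34000497, minus strand: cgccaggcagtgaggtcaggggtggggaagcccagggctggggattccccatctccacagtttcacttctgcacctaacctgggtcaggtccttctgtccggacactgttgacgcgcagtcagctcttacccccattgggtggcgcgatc
H2-D1 promoter, chr17:35262944-35263093, plus strand: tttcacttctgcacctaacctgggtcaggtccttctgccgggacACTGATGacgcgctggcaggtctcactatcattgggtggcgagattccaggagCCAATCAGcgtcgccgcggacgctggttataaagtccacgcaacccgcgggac
The motifs searched, on both strands of the 250 bases before the start, were CTGATTGG for the Y box, ACNGATG for the end of the X box, and GAAANNGAA for a stretch of the interferon response element. The Y box letters occurred in 3.83%, the X box end in 8.31% and the interferon response stretch in 7.13% of 32851 promoters of the same length. Of 8 class II genes with a promoter searched, 4 held the Y box letters (H2-Aa, H2-Eb1, H2-Eb2 and H2-Oa), 6 held the X box end and 0 held the interferon response stretch. Of 25 class I genes with a promoter, 13 held the Y box letters, 11 the X box end and 4 the interferon response stretch, among them B2m and H2-T23. The last count covers these exact letters only. Other forms of the interferon response element were not searched, in H2-K1 and H2-D1 too. The capitals in H2-Aa are the Y box, which starts at base -51 from the annotated start. The only match to the X box end letters in H2-Aa is on the reverse strand at base -232, outside the printed window and far from the Y box. H2-Eb1 holds the X box end at base -88 and the Y box at base -62, both on the gene's strand. H2-D1 holds the X box end at base -106 and the Y box on the reverse strand at base -53, and in neither do the matches overlap. No match was found in H2-K1, which says only that these exact letters are not in its window. A promoter was found in the table for 36 of the members searched, and H2-Ab1, H2-Ea and Ciita have none there. Cd74 was not among the genes searched, so the class II motif counts do not cover it.

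As normalized read counts made by the authors, the RNA values sum to between 9628801 and 11582945 per library with 12117 to 13197 genes at 10 or above. Sequencing depth is unknown, so no interval for counting error can be given. The fat marker Adipoq, which encodes adiponectin, averaged 31991 in BPA and 32967 in vehicle animals. More than 1 library stood apart. On the first principal component of all tested genes BPA animal 5 scored 64.2 and vehicle animal 6 scored 58.7, with BPA animal 2 next at 32.4, and these 3 were also the highest in duct epithelium markers. On the third component BPA animal 3 scored 41.8, with 17.8 in vehicle animal 1 as the next highest. The library that bears most on the MHC genes stood apart on the second component, where vehicle animal 3 scored 57.8, while the BPA animals lay between -13.7 and 6.30 and the other vehicle animals between -12.1 and 3.52. Its macrophage list, 8 genes such as Cd68 and Csf1r, had a mean log2 level of 10.8, against 8.99 to 9.40 in the BPA animals and 9.15 to 9.52 in the other vehicle animals. Ptprc, which encodes the pan-leukocyte antigen CD45, was at 1956 in this animal, against 436.6 to 715.7 in BPA and 521.8 to 821.4 in the other vehicle animals. The main results are therefore given with and without vehicle animal 3. In bulk tissue, fewer cells of a type and less RNA per cell cannot be told apart.

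Class II genes showed no difference between BPA and vehicle past the test. Vehicle animal 3 had the highest value in 8 of the 9 that met the filter. In the limma fit across 12528 genes whose value reached 10 in 6 libraries or more, 0% of genes passed a Benjamini-Hochberg adjusted p of 0.05, and 0 of the 26 MHC and antigen presentation genes that met the filter did. At an unadjusted limma p under 0.05 the share was 1.91% of all tested genes, and 0 of the 26. In 0.0319% of tested genes the BPA and vehicle values did not overlap, and in all 26 genes they overlapped. Of the 9 class II genes that met the filter, 2 were higher and 7 lower in BPA. Their log2 folds had a median of -0.21, beside 0.003 for all tested genes, of which 49.0% were lower. Without vehicle animal 3 the median of the 9 was 0.09 and 0 were lower. The fold is BPA over vehicle on the log2(value + 1) scale, which understates differences of genes with low values.

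The alpha and beta chains of the I-A molecule, H2-Aa and H2-Ab1, moved together. H2-Aa was at 4931, 4218, 5108, 3928, 4876 and 4845 in BPA animals 1 to 6 and at 4672, 2858, 15124, 7644, 3599 and 4296 in vehicle animals 1 to 6. H2-Ab1 was at 1594, 1251, 1550, 1284, 1567 and 1305 in BPA animals and at 1503, 935, 4014, 2006, 1288 and 1518 in vehicle animals. The BPA animals lay close together and inside the vehicle range, vehicle animals 3 and 4 were the 2 highest, and vehicle animal 2 was the lowest for both genes. H2-Aa averaged 4651 ± 466 in BPA and 6365 ± 4592 in vehicle animals (SD, n = 6 each), and its log2 fold was -0.21 (95% interval -0.89 to 0.47). The log2 fold of H2-Ab1 was -0.24 (-0.81 to 0.33), and without vehicle animal 3 the folds were 0.09 for H2-Aa and 0.01 for H2-Ab1. Both had a limma adjusted p of 0.9997. The ratio of H2-Ab1 to H2-Aa within an animal, read only between animals and not as relative amounts, ran from 0.269 to 0.327 in BPA and from 0.262 to 0.358 in vehicle animals. It spanned 1.36-fold over the 12 animals, while H2-Aa itself spanned 5.29-fold.

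**Figure D1:**
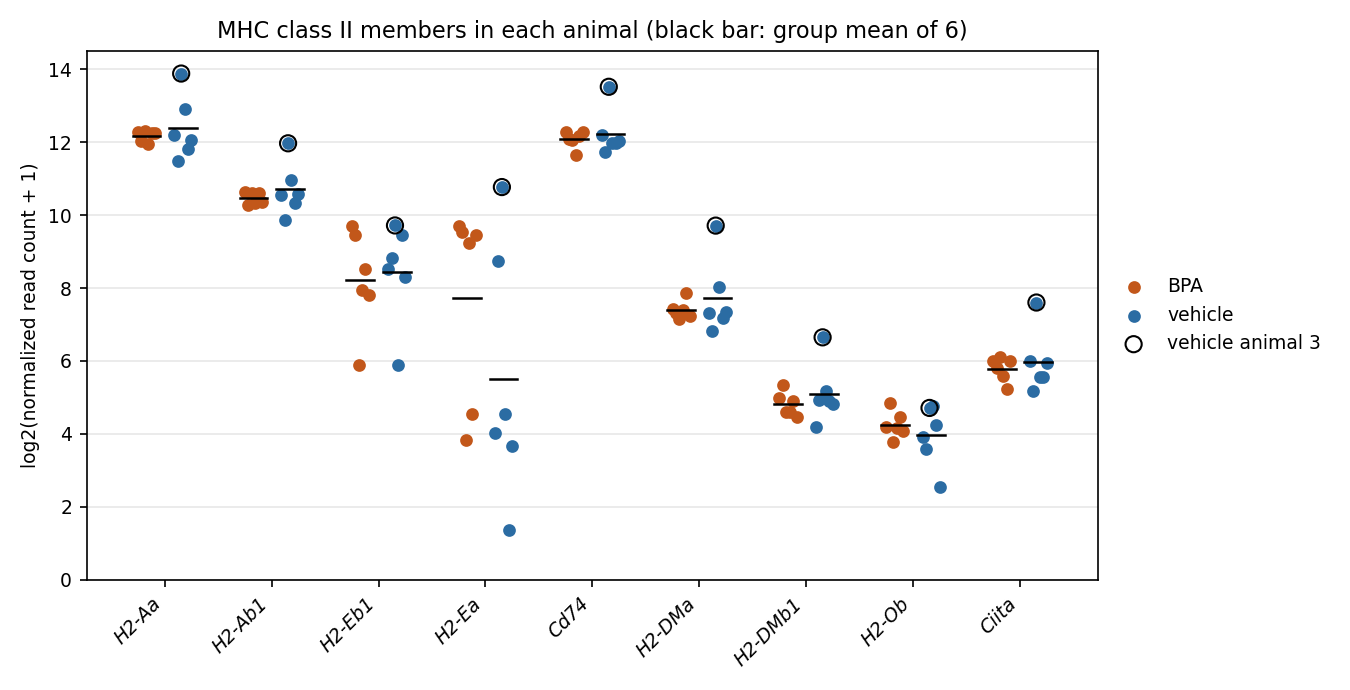
Level of the 9 class II genes that met the filter in each animal, as log2(normalized read count + 1), with BPA to the left of vehicle and a bar at each group mean of 6. Vehicle animal 3, circled, is the highest point in 8 of the 9 genes, and H2-Ea splits into a high and a low set in both groups.

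The chains of the second class II molecule, I-E, parted from I-A. H2-Ea, the alpha chain, was at 826.6, 744.4, 13.2, 599, 22.4 and 698 in BPA animals 1 to 6 and at 15.1, 425.4, 1746, 22.4, 1.6 and 11.7 in vehicle animals 1 to 6. There were 6 animals at 425.4 or more and the other 6 at 22.4 or less, with none between. BPA animals 1, 2, 4 and 6 and vehicle animals 2 and 3 were in the high set, so both sets hold animals of both groups. Its median was 648.5 in BPA and 18.8 in vehicle animals, its log2 fold 2.20 (95% interval -1.19 to 5.58), and its limma adjusted p 0.9997. Without vehicle animal 3 the log2 fold was 3.25 (0.21 to 6.28), with an unadjusted limma p of 0.0379 and an adjusted p of 0.9999. Without vehicle animal 5, the lowest of all, it was 1.37, with an unadjusted limma p of 0.386. Over the 12 animals it spanned 9.40 log2 units, the fourth widest of the 12528 tested genes. RefSeq lists H2-Ea of C57BL/6J as a transcribed pseudogene, and in mice of that haplotype the gene is known for a deletion that stops its expression. The MHC haplotypes of these outbred animals were not read here, and their part in the result was not tested.

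H2-Eb1, the beta chain that pairs with H2-Ea, showed another pattern. It was at 829.3, 695.1, 58, 247, 368 and 225 in BPA animals and at 369, 450.5, 841, 58.1, 707.5 and 314 in vehicle animals. BPA animal 3 and vehicle animal 4 were the lowest, and every other animal was at 225 or more. H2-Ea was low in both of these animals, but it was low as well in BPA animal 5 and in vehicle animals 1, 5 and 6, where H2-Eb1 lay between 314 and 707.5. The log2 fold of H2-Eb1 was -0.23 (-1.71 to 1.24), and the groups overlapped over nearly their whole ranges. Relative to H2-Aa in the same animal, H2-Eb1 spanned 25.9-fold and H2-Ea spanned 398-fold over the 12 animals.

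**Figure D2:**
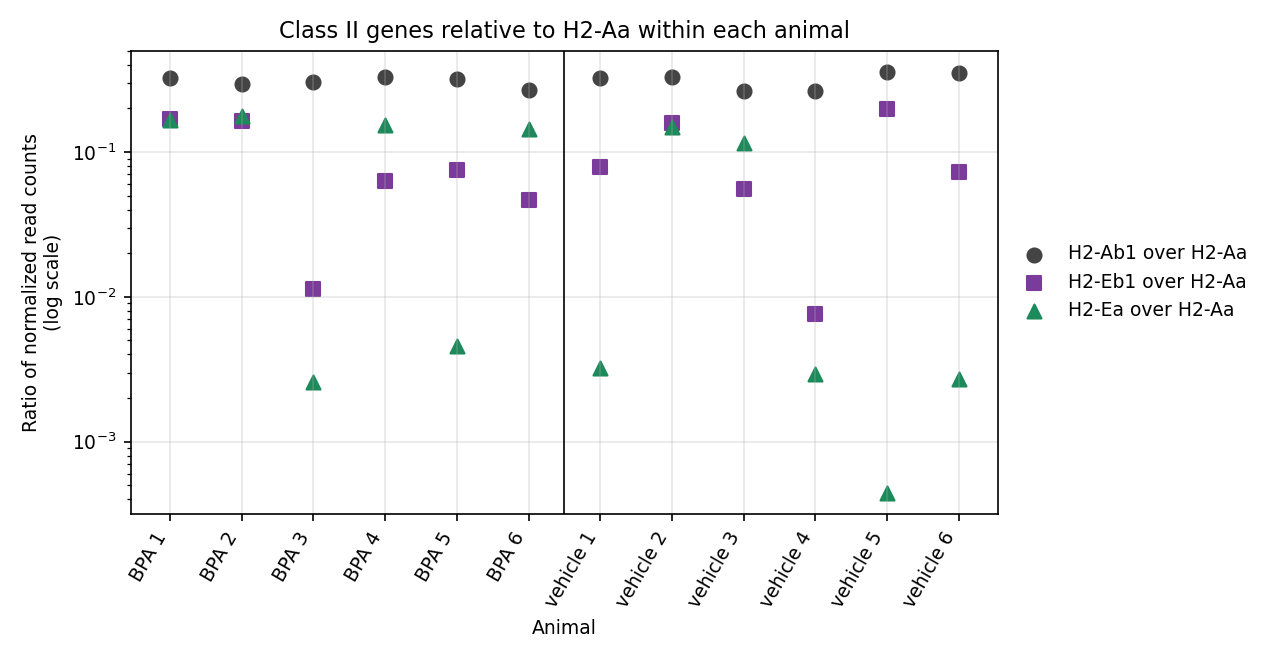
Ratio of H2-Ab1, H2-Eb1 and H2-Ea to H2-Aa within each animal, on a log axis, with the 6 BPA animals to the left and the 6 vehicle animals to the right. The ratio of H2-Ab1 stays between 0.262 and 0.358, while that of H2-Eb1 drops in BPA animal 3 and vehicle animal 4 and that of H2-Ea in 6 of the 12 animals.

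Genes of class II loading shared the high value of vehicle animal 3. Cd74, the invariant chain, was at 5006, 4385, 4292, 3238, 4577 and 4989 in BPA animals and at 4695, 3383, 11760, 4002, 4002 and 4225 in vehicle animals. All animals but vehicle animal 3 were within 3238 to 5006, and the log2 fold was -0.14 (-0.68 to 0.39), or 0.11 (-0.15 to 0.38) without that animal. H2-DMa, the alpha chain of the peptide exchange factor, was at 170, 158, 143, 166, 234 and 149 in BPA animals and at 157, 112, 838.7, 261, 143 and 161 in vehicle animals. H2-DMb1, one of its beta chains, was at 30.7, 39.6, 23.1, 23.4, 29.1 and 20.9 in BPA animals and at 17.1, 29.5, 99.3, 34.9, 28.7 and 27.4 in vehicle animals. Both DM genes were lower in BPA on average, by a log2 fold of -0.33 (-1.16 to 0.50) for H2-DMa and -0.29 (-1.02 to 0.44) for H2-DMb1, and without vehicle animal 3 the folds were 0.07 and 0.02. H2-Ob, the beta chain of H2-O, which restrains H2-DM, had a median of 17.1 in BPA and 16.0 in vehicle animals and a log2 fold of 0.29 (-0.48 to 1.06).

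Ciita, the coactivator of the class II promoters, followed the same course at a low level. It was at 63, 55.3, 68.3, 46.9, 36.4 and 63.4 in BPA animals and at 62.5, 35, 193.5, 46.5, 46.6 and 60.7 in vehicle animals. Outside vehicle animal 3 the groups covered nearly the same range. The log2 fold was -0.18 (-0.91 to 0.54), and 0.14 (-0.30 to 0.58) without that animal. The class II genes H2-DMb2, H2-Oa and H2-Eb2 did not meet the filter. H2-DMb2 reached 19.1 in BPA animal 5 and 18.9 in vehicle animal 3, and H2-Oa and H2-Eb2 stayed under 10 in every animal.

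Class I genes also showed no difference past the test. Of the 14 that met the filter, 6 were higher and 8 lower in BPA, and the median of their log2 folds was -0.07. Without vehicle animal 3 the median was 0.01 over the 12 still past the filter, with H2-T9 and H2-T22 leaving it. With H2-gs10 counted as class I, 6 were higher and 9 lower, and the median was -0.10, or -0.03 without vehicle animal 3. Leaving out each animal in turn gave medians between -0.26 and 0.02 for class I and between -0.33 and 0.09 for class II.

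H2-K1, the classical heavy chain H2-K, was at 2563, 2334, 5295, 3870, 1769 and 3648 in BPA animals 1 to 6 and at 2702, 1464, 8942, 5158, 693 and 2511 in vehicle animals 1 to 6. H2-D1, the heavy chain H2-D, was at 2588, 1228, 2243, 2281, 1396 and 2175 in BPA animals and at 2364, 920, 3576, 3776, 1254 and 1625 in vehicle animals. For both genes the vehicle values reached further up and further down than the BPA values. H2-K1 averaged 3246 ± 1283 in BPA and 3578 ± 3032 in vehicle animals (SD, n = 6 each). Its log2 fold was 0.22 (-0.86 to 1.30), positive although the mean of the values was lower in BPA. Vehicle animal 5 lay far below the rest on the log scale, and vehicle animal 3 was the highest. The fold of H2-K1 was -0.16 without vehicle animal 5 and 0.57 (-0.37 to 1.52) without vehicle animal 3. The log2 fold of H2-D1 was -0.05 (-0.76 to 0.67), or 0.12 (-0.58 to 0.83) without vehicle animal 3. The ratio of H2-K1 to H2-D1 within an animal ran from 0.991 to 2.36 in BPA and from 0.553 to 2.50 in vehicle animals. H2-K1 and H2-D1 are near-identical over parts of their length and so are other class I genes, so the split of reads among them is uncertain, all the more where reads of CD-1 alleles were placed on a build made from another strain.

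B2m, the light chain of every class I molecule, was among the steadiest members. It was at 40458, 38293, 38924, 36592, 28263 and 49699 in BPA animals 1 to 6 and at 45576, 28004, 53884, 41687, 33148 and 30826 in vehicle animals 1 to 6. The groups overlapped throughout, and the log2 fold was 0.01 (-0.37 to 0.40). The ratio of H2-K1 to B2m spanned 7.94-fold and that of H2-D1 to B2m 2.82-fold over the 12 animals.

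The peptide transporter and its partner were lower in BPA on average, within the spread of the animals. Tap1 was at 99.4, 70.4, 88.2, 83.5, 90.6 and 66.1 in BPA animals and at 74.5, 66.5, 337, 85, 132 and 80.3 in vehicle animals. Tap2 was at 74.8, 30, 51.3, 44.1, 40.9 and 57.3 in BPA animals and at 79.6, 46.9, 153, 52.2, 49.3 and 58.7 in vehicle animals. Vehicle animal 3 was the highest for both, and the groups overlapped in the other animals. The log2 folds were -0.38 (-1.08 to 0.33) for Tap1 and -0.47 (-1.10 to 0.16) for Tap2, and -0.05 and -0.23 without vehicle animal 3. Tapbp, tapasin, which bridges TAP and the empty class I molecule, was at 532.2, 519.2, 626.8, 579.2, 530.1 and 627.5 in BPA animals and at 708.1, 533.3, 1395, 646.1, 471.7 and 424.9 in vehicle animals. Its BPA values lay inside the vehicle range, and its log2 fold was -0.17 (-0.66 to 0.32), or 0.05 without vehicle animal 3.

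**Figure D3:**
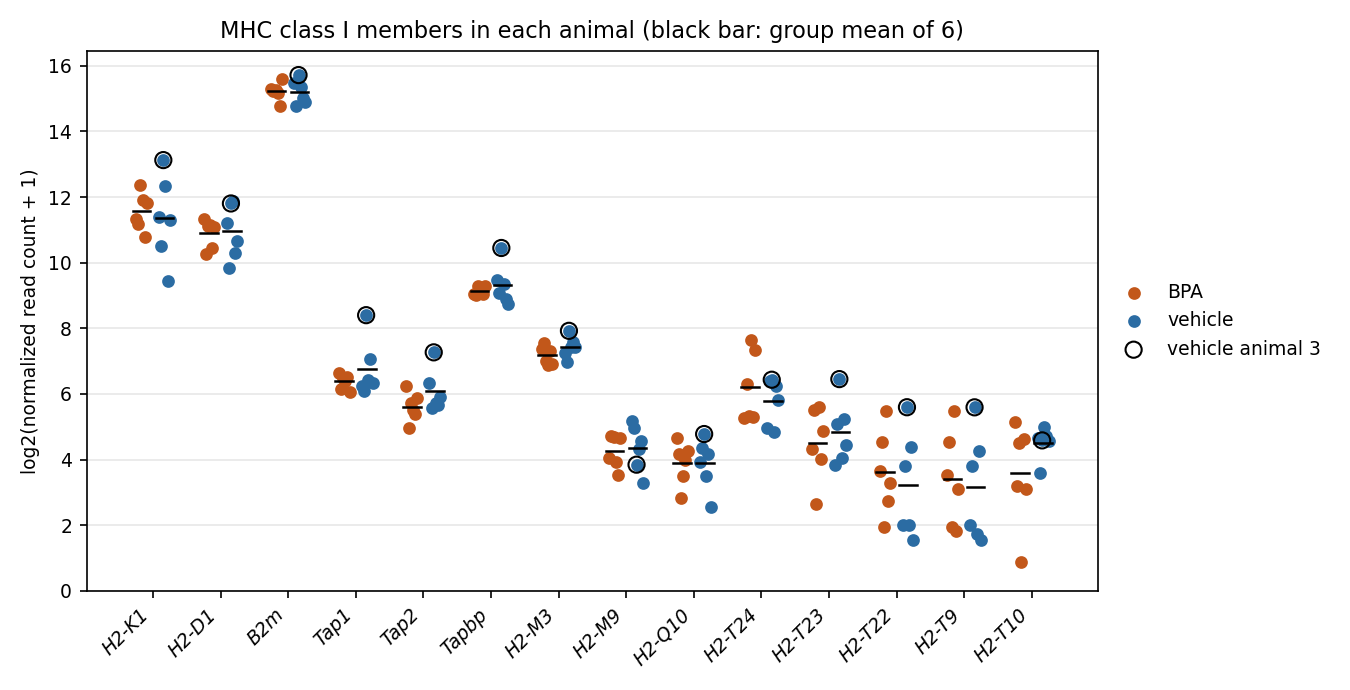
Level of the 14 class I genes that met the filter in each animal, as log2(normalized read count + 1), with BPA to the left of vehicle and a bar at each group mean of 6. Vehicle animal 3, circled, is the highest in 10 of the 14 genes. The T-region genes on the right each span 2.81 to 4.27 log2 units over the 12 animals.

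The nonclassical class I genes differed in their spread between animals, with a within-group SD on the log2 scale of 0.302 for H2-M3, 0.615 for H2-M9, 0.917 for H2-T24 and 1.03 to 1.54 for H2-T23, H2-T10, H2-T22 and H2-T9, beside 0.660 for H2-D1 and 1.01 for H2-K1. H2-T23 encodes Qa-1, which shows leader peptides to NK cell receptors, and ran from 5.23 to 47.1 with a median of 23.5 in BPA and from 13.1 to 86.5 with a median of 26.6 in vehicle animals. H2-T24, a further class I gene of the T region, ran from 37.8 to 198 with a median of 58.4 in BPA and from 27.5 to 85.3 with a median of 65.2 in vehicle animals. BPA animals 4 and 6, at 198 and 162, were the only ones above the vehicle range of H2-T24. H2-M3, which presents formylated peptides, ran from 116 to 188 in BPA and from 124.1 to 242 in vehicle animals, and 1 of the 6 BPA animals was above the vehicle median. The log2 folds were -0.35 (-1.50 to 0.79) for H2-T23, 0.42 (-0.59 to 1.42) for H2-T24 and -0.26 (-0.62 to 0.09) for H2-M3.

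H2-T22 and H2-T10 encode closely related ligands of gamma delta T cells, and H2-T9, which RefSeq calls Gm7030, lies in the same region. Reads of near-identical genes may be exchanged, so the 3 are uncertain as single genes. H2-T22 and H2-T9 had a ratio between 0.998 and 1.16 in 10 of the 12 animals, and of 2.28 in BPA animal 5 and 1.31 in vehicle animal 4. H2-T22 was at 11.5, 22, 2.87, 43.5, 5.7 and 8.79 in BPA animals and at 3.03, 13.1, 47.3, 3.01, 19.9 and 1.93 in vehicle animals. H2-T10, a transcribed pseudogene in RefSeq, was at 34.5, 8.19, 21.8, 0.842, 23.6 and 7.6 in BPA animals and at 24.2, 11, 23, 31.1, 25.2 and 22.5 in vehicle animals. BPA animals 2, 4 and 6 and vehicle animal 2 were the lowest in H2-T10, and the ratio of H2-T22 to H2-T10 spanned 604-fold over the 12 animals. H2-T10 had the most negative log2 fold of the class I genes past the filter, -0.94 (-2.22 to 0.35), with a limma adjusted p of 0.9997.

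Also past the filter were H2-M9, with a log2 fold of -0.10, and H2-Q10, which encodes a secreted class I molecule made mainly by liver, with 0.02. The 17 class I genes below the filter included H2-M2, at 0.851 to 22.8 in BPA and 1.21 to 25.2 in vehicle animals, H2-Q1, at up to 12.8 in vehicle animal 5, and H2-Q7, at up to 10.3 in BPA animal 5. The Q-region genes H2-Q6 and H2-Q7 are near-identical, so their values are uncertain. The M10 genes, known from neurons of the vomeronasal organ, were at 1.93 or less in every animal.

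Of the 4 H2- symbols left outside both classes, H2-Ke2, which RefSeq calls Pfdn6 and which encodes a prefoldin subunit, and H2-Ke6, a hydroxysteroid dehydrogenase, lie in the MHC without a part in antigen presentation. H2-Ke2 had a median of 56.1 in BPA and 59.6 in vehicle animals, and vehicle animal 3 was its lowest at 29.3. H2-Ke6 had a median of 125 in BPA and 127 in vehicle animals and a log2 fold of -0.02 (-0.34 to 0.30). H2-gs10 had a log2 fold of -0.30 (-0.99 to 0.38), and H2-Bl, a pseudogene in RefSeq, did not meet the filter, with 10.2 as its highest value.

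**Figure D4:**
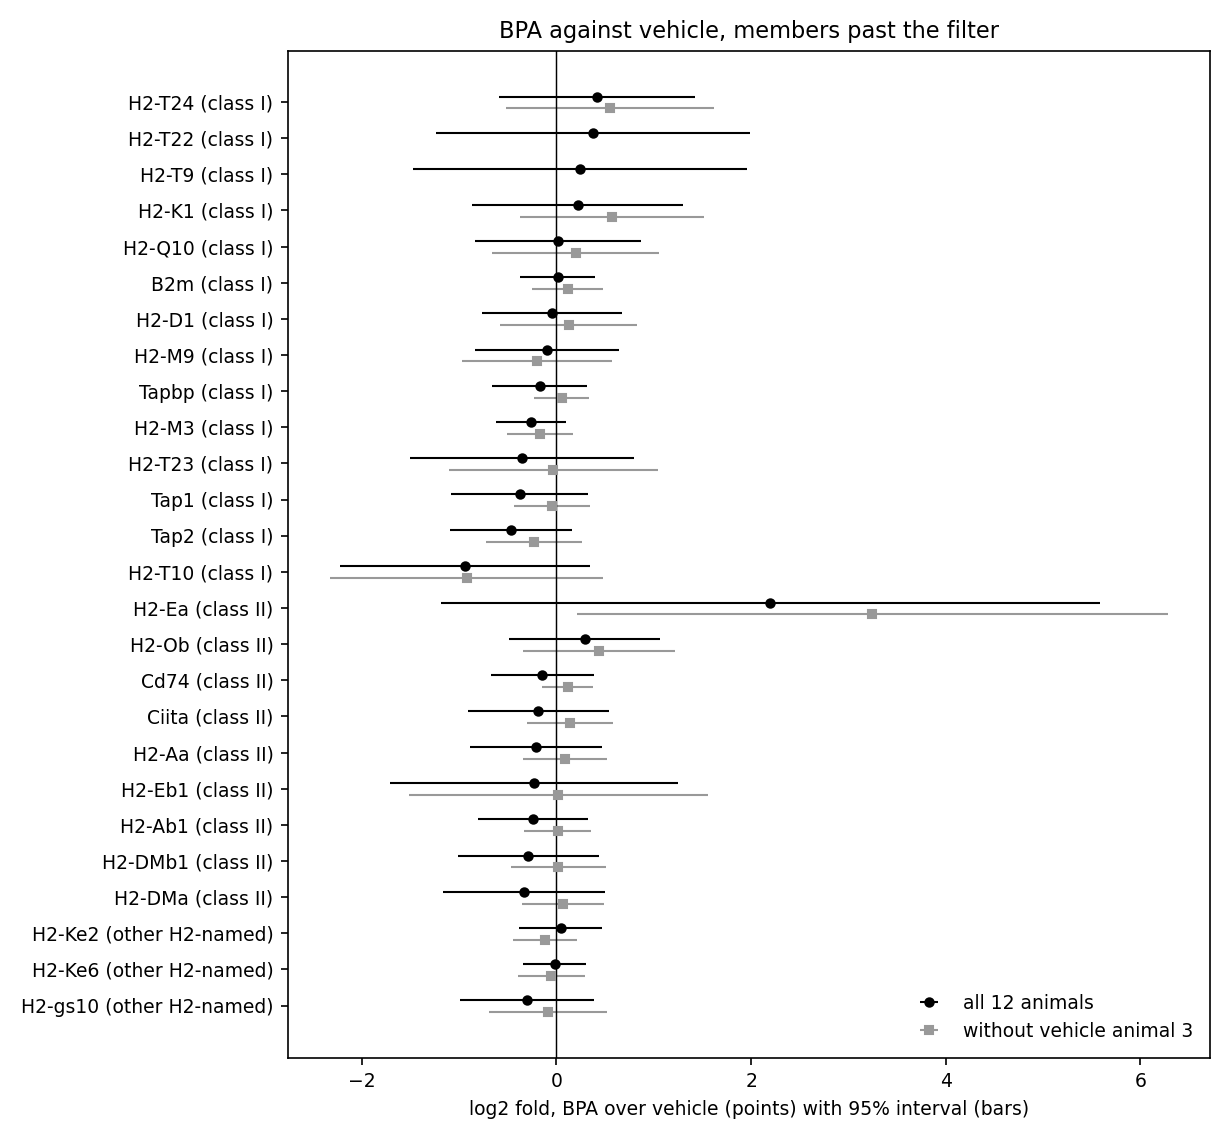
Log2 fold of BPA over vehicle with its 95% interval from the limma fit for the 26 genes that met the filter, grouped by class, with all 12 animals in black and without vehicle animal 3 in grey. Every interval over all 12 animals includes 0, and without vehicle animal 3 that of H2-Ea runs from 0.21 to 6.28; H2-T22 and H2-T9 have no grey point because they no longer met the filter.

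Vehicle animal 3 had the highest value of all 12 animals in 8 of the 9 class II genes and in 10 of the 14 class I genes, beside 15.5% of all tested genes. The exceptions were H2-Ob in class II and H2-D1, H2-T24, H2-T10 and H2-M9 in class I. Vehicle animal 2 was the lowest in 4 of the 9 class II genes and vehicle animal 6 in 5 of the 14 class I genes, beside 5.5% and 11.1% of all tested genes. The high macrophage and CD45 levels of vehicle animal 3 go along with its class II values, and their part in the result was not tested. The ratio of H2-Aa to Ptprc within an animal, read only between animals and not as relative amounts, was 7.73 in vehicle animal 3. It ran from 5.89 to 11.2 in BPA and from 4.38 to 13.1 in vehicle animals.

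**Figure D5:**
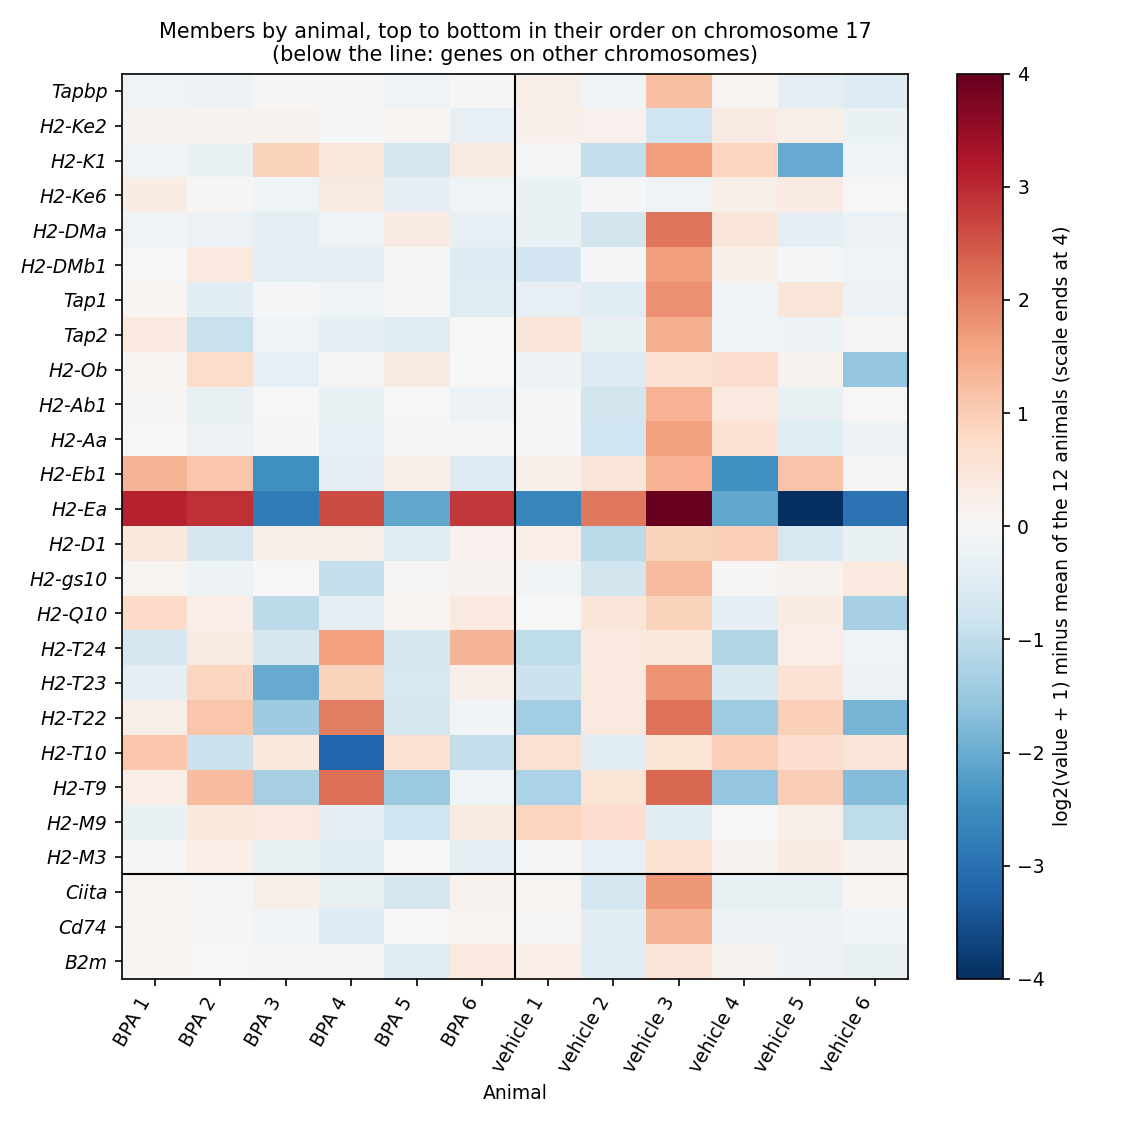
Level of each gene that met the filter in each animal, as log2(value + 1) minus its mean over the 12 animals, with BPA animals to the left of vehicle animals and genes in their RefSeq order on chromosome 17 (below the line, genes of other chromosomes). The column of vehicle animal 3 is above the mean for most genes, and H2-Ea, H2-Eb1 and the T-region genes go their own way from animal to animal.

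Correlations across the 12 animals were computed for 12 pairs of genes, with permutation tests of 100000 resamples and Benjamini-Hochberg adjustment over the 12. Cd74 followed Ciita with r = 0.91 (permutation p = 0.00317, adjusted 0.0380) and rho = 0.69 (p = 0.0172, adjusted 0.0688). Cd74 followed H2-Ab1 with r = 0.87 (permutation p = 0.00788, adjusted 0.0473) and rho = 0.57 (p = 0.0578, adjusted 0.173). H2-K1 followed B2m with r = 0.69 (permutation p = 0.0121, adjusted 0.0484) and rho = 0.74 (p = 0.00763, adjusted 0.0688). Without the 2 animals farthest from the median on the x axis, vehicle animals 2 and 3 in each case, r was 0.41 for Cd74 with Ciita, 0.13 for Cd74 with H2-Ab1 and 0.50 for H2-K1 with B2m, and none passed. The relations of Cd74 with Ciita and with H2-Ab1 therefore rest on those animals, while for H2-K1 with B2m the call was lost at a smaller change in r, and r was 0.57 without vehicle animal 3. Within BPA r was 0.33, 0.41 and 0.55 for these 3 pairs, and within vehicle 0.99, 0.91 and 0.76. Cd74 with the macrophage marker Cd68 had r = 0.88 (permutation p = 0.0167, adjusted 0.0501) and Cd74 with Ptprc r = 0.85 (permutation p = 0.0221, adjusted 0.0530), which fell short of the threshold and were 0.28 and 0.21 without vehicle animal 3. The pairs of Cd74 with H2-K1, Itgax, Cd79a and Adipoq and of H2-K1 with Tap1 and Ptprc had r between -0.10 and 0.53 and adjusted permutation p between 0.120 and 0.782.

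The genes outside the list whose values over the 12 animals were most like the mean of Cd74, H2-Aa, H2-Ab1 and H2-Eb1 were Psmb8 (r = 0.95), an immunoproteasome subunit, the Fc receptor genes Fcgr1 (0.94) and Fcer1g (0.93), Aurkb (0.93), Emr1 (0.92), which encodes the macrophage marker F4/80, Tcfec, Pld4, Ptpn6, Ms4a6b and BC013712. Without vehicle animal 3 these r were between 0.59 and 0.83. The 10 genes most like the mean of H2-K1, H2-D1 and B2m were Rab7l1 (r = 0.89), Plxnd1 (0.88), Ubd (0.86), Wasf1 (0.85), Lamp1, Ube2l3, Slc36a1, Ece2, Fert2 and Pth1r, and without vehicle animal 3 these r were between 0.73 and 0.87. The 2 sets share no gene. All points of a profile share their libraries, and the r is a description.

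Other genes of the pathway were counted in the same fit, and 0 passed the adjusted threshold in any list. All 5 immunoproteasome genes were lower in BPA, and the median of their log2 folds was -0.25, or 0.02 without vehicle animal 3. Psmb8 was at 295.5 to 518.3 in BPA and at 330.9 to 1728 in vehicle animals, with 1728 in vehicle animal 3 and 541.8 as the next highest vehicle value. The 5 genes of peptide loading and trimming were lower too, from Calr at -0.26 (-0.61 to 0.09), which encodes the chaperone calreticulin, to Pdia3 at -0.13, and all 5 stayed below 0 without vehicle animal 3 with a median of -0.08. The 6 regulators of class I had a median of -0.23, and -0.03 without that animal. Of 8 class II promoter factors, 5 were higher and 3 lower, with a median of 0.03. The 6 endosomal proteases and reductases were lower, by a log2 fold of -0.43 (-1.14 to 0.28) for Ctss, which encodes cathepsin S that trims the invariant chain, with a list median of -0.18, and 0.02 without vehicle animal 3. The nonclassical genes Mr1, Fcgrt, Hfe and Cd1d1 had folds between -0.13 and 0.10, and the costimulatory genes Cd80, Cd86, Cd40 and Icosl between -0.20 and 0.32.

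Markers of the cells that carry class II and of other cell types were counted in the same way, and none passed the adjusted threshold. All 8 macrophage markers were lower in BPA, beside 49.0% of all tested genes. Of the 8, 2 had an unadjusted limma p under 0.05, beside 1.91% of all tested genes. The median log2 fold of the 8 was -0.35. Without vehicle animal 3 it was -0.13, and 5 of the 8 were lower. The mean log2 level of the 8 ranged from 8.99 to 9.40 in BPA and from 9.15 to 10.8 in vehicle animals, and no macrophage marker was at 0. Cd163, a scavenger receptor of resident macrophages, was at 454.7 to 1094 in BPA and 1108 to 1481 in vehicle animals. Its BPA and vehicle values did not overlap, as in 0.0319% of all tested genes. Its log2 fold of -0.74 (-1.13 to -0.34) had a limma adjusted p of 0.9997. Mrc1, the mannose receptor, had a log2 fold of -0.35 (-0.69 to -0.02). Of 7 dendritic cell markers past the filter 2 were higher and 5 lower. Over all 8 dendritic cell markers listed, mean log2 levels were 4.98 to 5.65 in BPA and 5.11 to 6.00 in vehicle animals. Of 4 B cell markers past the filter 2 were higher and 2 lower, and the B cell marker Cd79a was at 0 to 14.8 in BPA and 1.69 to 13.9 in vehicle animals. All 5 mesothelial markers were lower in BPA, 2 of them at an unadjusted limma p under 0.05, Msln and Lrrn4, with a median of -1.13, or -1.29 without vehicle animal 3. Mean log2 levels of this list were 5.48 to 8.08 in BPA and 6.72 to 8.49 in vehicle animals. Duct epithelium markers were highest in BPA animals 2 and 5 and vehicle animal 6. Whether any of these account for the levels of the MHC genes was not tested.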

How the data were processed

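RNA of 12 animals was analysed, 6 BPA and 6 vehicle. What the authors deposited for RNA is a signal, read counts per gene that they rescaled to 1 library size. Per the submitters' processing notes edgeR and the mm9 build were used, with the aligner, annotation and strand setting not given in the sources used here. BPA was compared with vehicle on log2(value + 1) by limma 3.58.1 (R 4.3.3), using its intensity trend, for genes at 10 or more in at least 6 libraries, two-sided, with Benjamini-Hochberg adjustment at 0.05, and the fit was tested on simulated data. The deposited p-values and the methylation table were not used here, the latter because its mm9 windows could not be tied to these genes without an annotation of that build. Members were matched to the RefSeq gene table of GRCm38, 43 by symbol and 4 by synonym. Of these, 44 lie on chromosome 17. Correlations used Python 3.11.15 and scipy 1.17.1.

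The members and gene lists were chosen with earlier results of these data known. Values in every animal are given for H2-K1, H2-D1, B2m, Tap1, Tap2, Tapbp, H2-Aa, H2-Ab1, H2-Eb1, Cd74 and Ciita, and values or ranges for up to 10 other members with the widest range among those reaching 50. That rule found 8 such members, H2-Ea, H2-T23, H2-DMa, H2-T24, H2-DMb1, H2-Ke2, H2-M3 and H2-Ke6. H2-T22, H2-T9, H2-T10 and the other members named were chosen after their values were seen. Of the pathway and marker lists up to 4 genes each were named by smallest p, besides Cd68, Itgax, Cd79a and Adipoq from the correlated pairs. Alternatives were another pseudocount, filter, normalization, trend or weighting, a replicate block, and leaving out each animal or the 3 libraries with high duct epithelium markers. The correlations and spreads without vehicle animal 3, and class I with H2-gs10 added, were chosen after seeing the data. Of the 12 correlated pairs 1 is not reported here.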

Additional observations from a re-analysis of the deposited data

Results flagged for a closer look

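Of 52 groups of 6 animals (26 genes in BPA and in vehicle), 7 held a single animal past the 95% critical value of Dixon's test. There the animal's gap to its nearest neighbour on the log2 scale took a larger share of the group's range than that value. For independent groups with normally distributed values, chance gives such a gap in about 1 in 20. The 26 genes share their libraries, and the other tested genes were not checked in this way. The count therefore cannot show whether such animals are more frequent in these genes than in others. In 2 of the 7 groups the animal was vehicle animal 3. Ciita was at 193.5 in that animal, with the other vehicle animals at 35.0 to 62.5. Cd74 was at 11760 in it, with the other vehicle animals at 3383 to 4695. Cd74 was also low in BPA animal 4, at 3238, with the other BPA animals at 4292 to 5006. H2-DMa was at 234.1 in BPA animal 5, with the other BPA animals at 143 to 170. H2-Eb1 was at 58.1 in vehicle animal 4, with the other vehicle animals at 314 to 841. H2-T10 was at 11.0 in vehicle animal 2, with the other vehicle animals at 22.5 to 31.1. H2-gs10 was at 7.44 in BPA animal 4, with the other BPA animals at 13.4 to 17.01.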

How the results depend on the processing

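Under all alternatives 0 genes were called, with 186 to 497 at an unadjusted limma p under 0.05, 497 of them with no filter, and the class medians had no test. The class II median was -0.00078 with array weights, and without the 3 libraries with high duct epithelium markers the medians were -0.26 for both classes. Array weights turned the log2 fold of H2-D1 to 0.26, H2-Aa to 0.051, Ciita to 0.10, H2-Ke2 to -0.067 and H2-Ke6 to 0.015. Leaving out the same 3 libraries turned H2-D1 to 0.17, H2-Ke2 to -0.048 and H2-Ke6 to 0.063, and quantile normalization turned B2m to -0.028. The cause was not tested. Leaving out 1 animal at a time gave log2 folds of -0.073 to 0.12 for B2m, -0.25 to 0.11 for Cd74, -0.35 to 0.14 for Ciita, -0.39 to 0.086 for H2-Aa, -0.41 to 0.011 for H2-Ab1, -0.27 to 0.14 for H2-D1, -0.51 to 0.065 for H2-DMa, -0.48 to 0.018 for H2-DMb1, 1.37 to 3.25 for H2-Ea, -0.75 to 0.23 for H2-Eb1, -0.16 to 0.57 for H2-K1, -0.12 to 0.11 for H2-Ke2, -0.092 to 0.057 for H2-Ke6, -0.57 to 0.017 for H2-T23 and -0.29 to 0.053 for Tapbp. The correlation of Cd74 with H2-K1 was -0.34, of H2-K1 with Tap1 -0.13 and of Cd74 with Itgax -0.37 within BPA. That of H2-K1 with Ptprc was -0.48 without its 2 farthest animals. Without vehicle animal 3 it was -0.25, and that of H2-K1 with Tap1 was -0.44. With the replicate block 0 genes were called and 226 had an unadjusted p under 0.05. The correlations of same-numbered animals were -0.57 to 0.40. Differently numbered animals were not set beside them, so these values cannot decide whether the numbers pair animals. The labels give no pairing. Depth is unknown, so genes near the filter of 10, the T and Q regions above all, have counting error and differences between animals that cannot be told apart.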

Other observations

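The MHC and antigen presentation genes had a larger median spread between animals of a group than their neighbours on chromosome 17. Between Tapbp and H2-M2 in RefSeq order, 23 of them met the filter, with a median within-group SD of 0.642 on the log2(value + 1) scale and 7 above 1. The other 64 tested genes of the interval had a median SD of 0.323 and 3 above 1, which were Cdsn, Slc44a4 and BC051142. Over all 12528 tested genes the median was 0.271 and 4.35% were above 1. Without vehicle animal 3 the median SD was 0.619 for the 23 genes with 5 above 1, 0.289 for the 64 neighbours with 3 above 1, and 0.259 for all tested genes. The 7 genes above 1 include H2-T23, H2-T10, H2-T22 and H2-T9, each under 10 in some animals, where counting error adds to the spread. H2-T22 and H2-T9 had nearly the same values in most animals and are counted apart. The sets were not matched for level. The 3 neighbours named were chosen after their values were seen, and the SDs were not compared with a test.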
